A study of Mus musculus with 9 samples.

Results

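The 7 genes Fpr1, Fpr2, C5ar1, C5ar2, C3ar1, Ltb4r1 and Ptafr encode the formyl peptide, complement and lipid chemoattractant receptors. They were taken by gene symbol from the deposited expression tables and were 7 of 18325 genes with values. The 9 bulk RNA sequencing libraries came from neutrophils sorted from the lungs of female BALB/c mice, with 3 libraries in each of 3 groups. In 2 groups, the mice had received 4T1-LM3 cells, a lung-tropic derivative of the 4T1 mouse mammary carcinoma line, by orthotopic fat pad injection, and Ly6Ghigh or Ly6Glow neutrophils were collected at the macrometastatic stage (MACRO Ly6Ghigh and MACRO Ly6Glow). The third group was Ly6Ghigh neutrophils from the lungs of mice with no stated injection (normal lung, NL Ly6Ghigh). The animals' age is not in the labels, and the labels do not say whether a library is 1 mouse or a pool. The p-values below therefore measure only the spread between these libraries, which may be technical.

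All 7 proteins are G protein-coupled receptors of the neutrophil surface that read the products of infection and tissue damage. Fpr1 and Fpr2 bind N-formylated peptides released by bacteria and mitochondria, C5ar1, C5ar2 and C3ar1 bind the complement anaphylatoxins, and Ltb4r1 and Ptafr bind the lipid mediators leukotriene B4 and platelet-activating factor. Most of them couple to inhibitory G proteins and drive directed migration, granule release and the oxidative burst, and they are then silenced by receptor kinases and arrestins. C5ar2 differs in that it couples poorly to G proteins.

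The sort was on Ly6G protein, and the Ly6g transcript was 374 CPM (counts scaled to library size) in MACRO Ly6Ghigh, 394 in MACRO Ly6Glow and 119 in NL Ly6Ghigh. The MACRO libraries did not overlap in Ly6g, which was slightly higher in those labelled Ly6Glow, against the direction of the label (log2 fold change 0.08, edgeR adjusted p = 0.0577, not called), and the difference was -0.16 on log2(FPKM + 1). Library totals were 15267177 to 17841807 estimated counts. All 10 neutrophil markers were detected in every group, but their summed level was 69421 to 71267 CPM in MACRO Ly6Ghigh, 76545 to 78480 in MACRO Ly6Glow and 20437 to 20732 in NL Ly6Ghigh. Some markers of other lung cells moved the opposite way and some the same way. Epithelial or tumor markers summed to 1213 to 1313 CPM in NL Ly6Ghigh and 116 to 124 in the MACRO libraries, endothelial markers to 962 to 1036 and 142 to 181, and monocyte or macrophage markers to 1629 to 1704 and 828 to 927, with none of the genes of these 3 lists at 0. Eosinophil markers summed to 110 to 118 CPM in MACRO Ly6Ghigh, 36.2 to 37.9 in MACRO Ly6Glow and 40.6 to 43.3 in NL Ly6Ghigh. Basophil or mast cell markers summed to 147 to 149, 249 to 253 and 85.1 to 87.6 CPM in the same order, and neither list had a gene at 0. Most of the basophil or mast cell sum was Kit, at 104, 225 and 58.3 CPM. Of the 7 tested genes of that list, 4 were called lower in MACRO Ly6Glow than in MACRO Ly6Ghigh and 1, Kit, was called higher. Markers of immature neutrophil granules differed within the tumor-bearing lung, at 35717 to 36452 CPM in MACRO Ly6Ghigh and 12879 to 13402 in MACRO Ly6Glow. The part of these differences in the receptor results was not tested, and fewer cells of a type and less RNA per cell cannot be told apart in bulk libraries.

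Levels of different genes were compared as FPKM, the deposited unit, in which fragments are divided by transcript length and library size. The receptors fell into 2 tiers. Fpr2, C5ar1, Fpr1, Ltb4r1 and Ptafr had group means of 42.4 to 619 FPKM, whereas C5ar2 and C3ar1 had group means of 1.57 to 10.4 FPKM. Fpr2 had the highest level of the 7 in each group and C5ar1 the next. Below them, the order in MACRO Ly6Ghigh was Fpr1, Ltb4r1 and Ptafr, in MACRO Ly6Glow it was Fpr1, Ptafr and Ltb4r1, and in NL Ly6Ghigh it was Ptafr, Fpr1 and Ltb4r1. Neighbours in these orders did not overlap between libraries, apart from C5ar2 and C3ar1 in NL Ly6Ghigh.

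**Figure D1:**
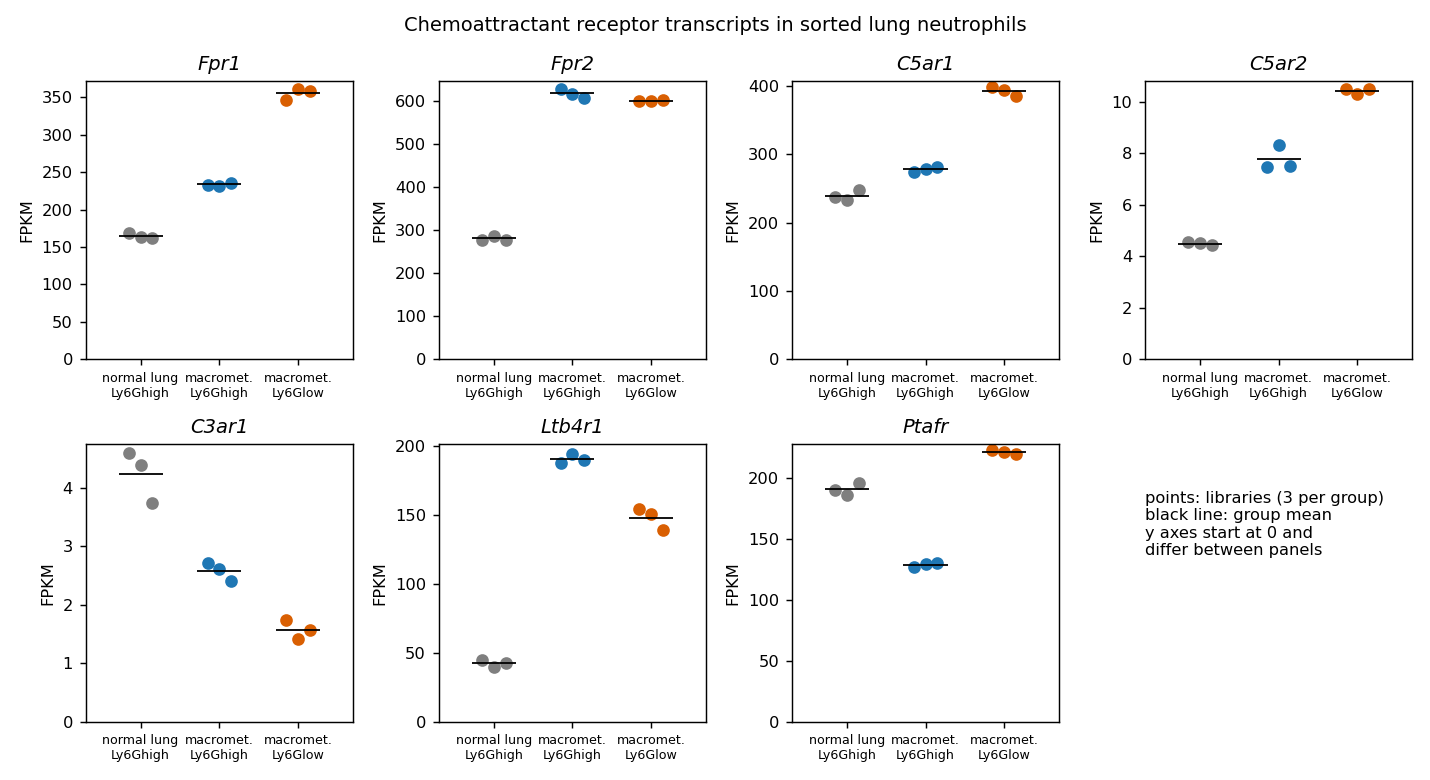
FPKM of each receptor gene (y axis, from 0) in each library (points) of NL Ly6Ghigh, MACRO Ly6Ghigh and MACRO Ly6Glow (x axis), with the group mean as a line. Fpr1, C5ar1 and C5ar2 were lowest in NL Ly6Ghigh and highest in MACRO Ly6Glow, C3ar1 had the reverse order, Ltb4r1 was 39.9 to 44.5 FPKM in NL Ly6Ghigh against 139 to 194 in the MACRO libraries, and Ptafr was lowest in MACRO Ly6Ghigh.

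The formyl peptide receptors lie side by side on chromosome 17 (GRCm38.p6, the assembly of mm10). Fpr1 lies at chr17:17876471-17883939 on the minus strand and Fpr2 at chr17:17887824-17893952 on the plus strand, so that they are read away from each other from starts 3885 bases apart. Both genes were called higher in each MACRO group than in NL Ly6Ghigh, but only Fpr1 was called between the MACRO groups. The 250 bases before each start (RefSeq, GRCm38.p6) are shown because of that difference. They are chr17:17883940-17884189 on the minus strand for Fpr1 and chr17:17887574-17887823 on the plus strand for Fpr2, written 5′ to 3′ on the strand of the gene. Capitals mark the matches to 8 short motifs of factors active in myeloid cells and of the core promoter, searched on both strands, of which no 2 matches overlapped. For ETS factors, PU.1 among them, the letters were GGAAGT, found in 20% of the 27025 promoters of this length. For C/EBP factors, which guide granulocyte development, they were TTGCNNAA, in 9.55% of promoters. For AP-1 they were TGANTCA, in 6.87% of them. For the hypoxia factor HIF they were ACGTG, found in 16.6% of these promoters. For SP1 and KLF factors they were GGGCGG, found in 32.9% of all promoters. For RUNX factors they were TGTGGT, a run held by 14.2% of the promoters. The TATA box was searched as TATAAA, and the NF-kB motif was held by 1.17% of promoters.
Fpr1: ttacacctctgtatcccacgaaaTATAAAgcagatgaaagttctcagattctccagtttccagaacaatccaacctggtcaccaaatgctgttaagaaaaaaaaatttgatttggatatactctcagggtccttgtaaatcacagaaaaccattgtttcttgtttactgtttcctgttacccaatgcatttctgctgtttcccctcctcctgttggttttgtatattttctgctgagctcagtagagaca
Fpr2: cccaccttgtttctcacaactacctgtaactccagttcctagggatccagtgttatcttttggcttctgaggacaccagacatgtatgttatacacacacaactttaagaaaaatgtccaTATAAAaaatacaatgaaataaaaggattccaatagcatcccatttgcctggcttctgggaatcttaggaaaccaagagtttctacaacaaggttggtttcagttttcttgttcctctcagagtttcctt
In both, the marked letters are TATAAA, which lay at bases -227 to -222 of Fpr1 and -130 to -125 of Fpr2, counted back from -1 at the base before the start. TATAAA occurred in 13% of 27025 promoters of the same length, and a match is a description of the letters, not a site in use.

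Fpr1, the high-affinity formyl peptide receptor, was 168, 163 and 162 FPKM in the NL Ly6Ghigh libraries, 233, 232 and 236 in MACRO Ly6Ghigh and 347, 362 and 358 in MACRO Ly6Glow. The 3 groups stood apart without overlap, and the level was highest in MACRO Ly6Glow. In the edgeR quasi-likelihood fit over 14108 genes, with libraries scaled by trimmed mean of M values (TMM), Fpr1 was 1.96-fold higher in MACRO Ly6Ghigh than in NL Ly6Ghigh (log2 fold change 0.97, SE 0.034, adjusted p = 4.96e-17). It was 1.8-fold higher again in MACRO Ly6Glow than in MACRO Ly6Ghigh (log2 fold change 0.84, SE 0.033, adjusted p = 2.91e-15). The first difference depended on the scaling: with limma on log2(FPKM + 1), which leaves out the TMM step, it was 0.50, below the threshold of 0.58 used for a call, and on log2(TPM + 1), where TPM is FPKM rescaled to the same sum in every library, it was 0.14.

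Fpr2, the receptor for formyl peptides, annexin A1, cathelicidin and serum amyloid A, was 278, 287 and 278 FPKM in NL Ly6Ghigh, 630, 618 and 609 in MACRO Ly6Ghigh and 600, 601 and 603 in MACRO Ly6Glow. Both MACRO groups were above NL Ly6Ghigh and close to each other. Fpr2 was 3.04-fold higher in MACRO Ly6Ghigh than in NL Ly6Ghigh (log2 fold change 1.61, SE 0.030, adjusted p = 1.3e-21). Between the MACRO groups, the log2 fold change of Ly6Glow over Ly6Ghigh was 0.19 (SE 0.029, adjusted p = 5.97e-06), which did not reach the threshold, and it was -0.04 on log2(FPKM + 1). Within a library, the FPKM ratio of Fpr2 to Fpr1 does not depend on how libraries are scaled. It was 2.65 ± 0.0641 (SD, n = 3) in MACRO Ly6Ghigh, 1.69 ± 0.0334 in MACRO Ly6Glow and 1.71 ± 0.0555 in NL Ly6Ghigh. The ratio was therefore higher in MACRO Ly6Ghigh without overlap, while MACRO Ly6Glow and NL Ly6Ghigh overlapped. Reads of related Fpr genes could be divided differently by the counting, and Fpr3, a related gene, had 0 to 12.2 estimated counts per library.

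The C5a receptor genes are also neighbours. C5ar1 lies at chr7:16246743-16259540 and C5ar2 at chr7:16234587-16244154, both on the minus strand and 2588 bases apart. C5ar1, the signalling receptor for C5a, was 238, 233 and 247 FPKM in NL Ly6Ghigh, 274, 279 and 281 in MACRO Ly6Ghigh and 399, 394 and 386 in MACRO Ly6Glow. The groups did not overlap, and the wider step was between the MACRO groups on this scale. C5ar1 was 1.66-fold higher in MACRO Ly6Glow than in MACRO Ly6Ghigh (log2 fold change 0.73, SE 0.031, adjusted p = 1.44e-14). The log2 fold change of MACRO Ly6Ghigh over NL Ly6Ghigh was 0.68 (SE 0.032, adjusted p = 8.78e-15). That second call was lost with upper-quartile factors (0.49), with a filter of at least 10 counts in every library (0.51) and on log2(FPKM + 1) (0.21), and on log2(TPM + 1) the value was -0.15.

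C5ar2, the weakly coupled C5a receptor, was 4.54, 4.49 and 4.43 FPKM in NL Ly6Ghigh, 7.47, 8.31 and 7.51 in MACRO Ly6Ghigh and 10.5, 10.3 and 10.5 in MACRO Ly6Glow. Its order over the groups was the same as that of C5ar1 at a much lower level. It was 2.43-fold higher in MACRO Ly6Ghigh than in NL Ly6Ghigh (log2 fold change 1.28, SE 0.068, adjusted p = 9.53e-14) and 1.57-fold higher in MACRO Ly6Glow than in MACRO Ly6Ghigh (log2 fold change 0.65, SE 0.060, adjusted p = 4.67e-09). The first call was lost on log2(TPM + 1), at 0.39. The second was lost on log2(FPKM + 1), at 0.38, and on log2(TPM + 1), at 0.48. The FPKM ratio of C5ar1 to C5ar2 was 35.9 ± 2.08 (SD, n = 3) in MACRO Ly6Ghigh, 37.7 ± 0.75 in MACRO Ly6Glow and 53.4 ± 2.1 in NL Ly6Ghigh. The MACRO groups overlapped in this ratio, and both were below NL Ly6Ghigh without overlap.

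C3ar1, the C3a receptor, lies at chr6:122847140-122856157 on the minus strand. It was 4.59, 4.39 and 3.74 FPKM in NL Ly6Ghigh, 2.71, 2.61 and 2.41 in MACRO Ly6Ghigh and 1.73, 1.42 and 1.56 in MACRO Ly6Glow, the reverse of the order seen for the C5a receptors. In the edgeR fit it was lower in MACRO Ly6Glow than in NL Ly6Ghigh (log2 fold change -0.74, SE 0.103, adjusted p = 9.91e-07). The other differences did not reach the threshold, with a log2 fold change of -0.48 (SE 0.111) between MACRO Ly6Glow and MACRO Ly6Ghigh and -0.25 (SE 0.092) between MACRO Ly6Ghigh and NL Ly6Ghigh, where the libraries overlapped in CPM. Both passed it on log2(FPKM + 0.1), at -0.68 and -0.69, and the second also on log2(TPM + 1), at -0.94. Alveolar macrophage markers had the same order, with sums of 782 to 797 CPM in NL Ly6Ghigh, 266 to 277 in MACRO Ly6Ghigh and 56.5 to 57.3 in MACRO Ly6Glow, and none of the 10 genes was at 0. Their part in the C3ar1 result was not tested.

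The lipid receptor genes lie on different chromosomes, with Ltb4r1 at chr14:55765962-55768492 and Ptafr at chr4:132564067-132582683, both on the plus strand. Their 250 bases before the start, at chr14:55765712-55765961 and chr4:132563817-132564066 (RefSeq, GRCm38.p6, plus strand), are shown because these 2 genes moved apart over the groups. Capitals again mark the motif matches.
Ltb4r1: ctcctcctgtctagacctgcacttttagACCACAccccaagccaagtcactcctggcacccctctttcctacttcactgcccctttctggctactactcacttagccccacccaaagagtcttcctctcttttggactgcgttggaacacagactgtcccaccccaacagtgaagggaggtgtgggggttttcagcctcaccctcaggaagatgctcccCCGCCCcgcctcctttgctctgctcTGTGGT
Ptafr: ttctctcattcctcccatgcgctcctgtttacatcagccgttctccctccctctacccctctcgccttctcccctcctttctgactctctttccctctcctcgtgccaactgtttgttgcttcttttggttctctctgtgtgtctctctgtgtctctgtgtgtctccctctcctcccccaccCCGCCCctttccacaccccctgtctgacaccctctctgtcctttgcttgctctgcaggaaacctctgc
Each holds CCGCCC, which is the SP1 and KLF motif read on the other strand, at bases -31 to -26 of Ltb4r1 and -68 to -63 of Ptafr, the commonest of the 8 motifs. Ltb4r1 also holds the RUNX letters, as ACCACA at -222 to -217 and TGTGGT at -6 to -1.

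Ltb4r1, the high-affinity leukotriene B4 receptor, was 44.5, 39.9 and 42.8 FPKM in NL Ly6Ghigh, 188, 194 and 190 in MACRO Ly6Ghigh and 154, 151 and 139 in MACRO Ly6Glow. Every MACRO library was far above every NL library, and MACRO Ly6Ghigh was above MACRO Ly6Glow. Ltb4r1 was 6.2-fold higher in MACRO Ly6Ghigh than in NL Ly6Ghigh (log2 fold change 2.63, SE 0.048, adjusted p = 7.78e-22), and 94 of 14108 genes, or 0.666%, rose at least as far. Over the same comparison, the summed neutrophil markers were 3.42-fold higher, a sum that was mostly S100a8 and S100a9. Of the 10 markers, 7 were called higher and 3 were not called, with a median log2 fold change of 1.34. Ltb4r1 was 5.65-fold higher in MACRO Ly6Glow than in NL Ly6Ghigh (log2 fold change 2.50, SE 0.048, adjusted p = 1.72e-21). Between the MACRO groups, the log2 fold change of Ly6Glow over Ly6Ghigh was -0.13 (SE 0.042, adjusted p = 0.0105), short of the threshold. The neighbouring gene Ltb4r2, which encodes the low-affinity leukotriene B4 receptor and ends 1895 bases before Ltb4r1, had 15.8 to 32.8 estimated counts per library.

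Ptafr, the receptor for platelet-activating factor, was 190, 186 and 196 FPKM in NL Ly6Ghigh, 127, 129 and 130 in MACRO Ly6Ghigh and 223, 221 and 219 in MACRO Ly6Glow. On this scale its lowest level was in MACRO Ly6Ghigh and its highest in MACRO Ly6Glow, with no overlap. Ptafr was 2.03-fold higher in MACRO Ly6Glow than in MACRO Ly6Ghigh (log2 fold change 1.02, SE 0.031, adjusted p = 7.33e-17), and 408 of 14108 genes, or 2.89%, had a log2 fold change at least as high. The log2 fold change of MACRO Ly6Ghigh over NL Ly6Ghigh was -0.11 (SE 0.031, adjusted p = 0.00336), short of the threshold, and -0.93 on log2(TPM + 1). The log2 fold change of MACRO Ly6Glow over NL Ly6Ghigh was 0.91 (SE 0.031, adjusted p = 2.87e-17), but 0.21 on log2(FPKM + 1) and -0.07 on log2(TPM + 1), so that its direction against normal lung depended on the scaling.

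Between the 2 neutrophil groups of the tumor-bearing lung, 4 of the 7 receptor genes passed both limits of a call (adjusted p no higher than 0.05, log2 fold change beyond 0.58 in either direction), namely Fpr1, C5ar1, C5ar2 and Ptafr, and all 4 were higher in MACRO Ly6Glow. Over all genes tested, 25.2% were called, 9.29% as higher and 15.9% as lower. The median log2 fold change of the 7 was 0.65, against -0.04 over all genes. In CPM, MACRO Ly6Ghigh and MACRO Ly6Glow were separated without overlap for 7 of 7 genes and for 62.1% of all genes, and 7 of 7 had an adjusted p no higher than 0.05 whatever the fold change, as did 55.8% of all genes. All 4 calls remained when any 1 of the 9 libraries was left out and with DESeq2. On log2(FPKM + 1), 2 of 7 were called, Fpr1 at 0.61 and Ptafr at 0.78, while C5ar1 was at 0.50. Markers of other cells or stages moved with this comparison: 9 of 10 immature granule, 5 of 6 eosinophil, 7 of 10 alveolar macrophage and 4 of 7 basophil or mast cell markers were lower in MACRO Ly6Glow, and their part in it was not tested.

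Against normal lung, Fpr1, Fpr2, C5ar1, C5ar2 and Ltb4r1 were called as higher in MACRO Ly6Ghigh and none as lower, which is 5 of 7 where 62.9% of all genes were called, 26.3% as higher and 36.6% as lower. In MACRO Ly6Glow, 6 of 7 were higher than in NL Ly6Ghigh and C3ar1 was lower, where 69.5% of all genes were called, 28.7% as higher and 40.8% as lower. Both comparisons use the same 3 NL libraries. Without regard to the fold change, 7 of 7 had an adjusted p no higher than 0.05 in each, beside 84.6% of all genes in the first and 86.8% in the second. The libraries were separated without overlap for 6 of 7 genes in the first, beside 85.2% of all genes, and for 7 of 7 in the second, beside 86.8%. Fold changes of MACRO Ly6Glow over NL Ly6Ghigh not yet given were 3.52-fold for Fpr1, 3.48-fold for Fpr2, 2.66-fold for C5ar1 and 3.83-fold for C5ar2. On log2(TPM + 1), these were 0.83, 0.82, 0.43 and 0.87 as log2 differences, of which that of C5ar1 was no longer called. Over the same comparison, the summed neutrophil markers were 3.78-fold higher, a sum that was mostly S100a8 and S100a9. Of the 10 markers, 9 were called higher and 1 was not called, with a median log2 fold change of 1.82. On log2(FPKM + 1), 3 of 7 receptors were called in MACRO Ly6Ghigh over NL Ly6Ghigh, and 6 of 7 in MACRO Ly6Glow over NL Ly6Ghigh. On log2(TPM + 1), the balance in MACRO Ly6Ghigh over NL Ly6Ghigh became 2 higher, Fpr2 and Ltb4r1, and 2 lower, C3ar1 and Ptafr, with a median of 0.14 in place of 0.97.

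**Figure D2:**
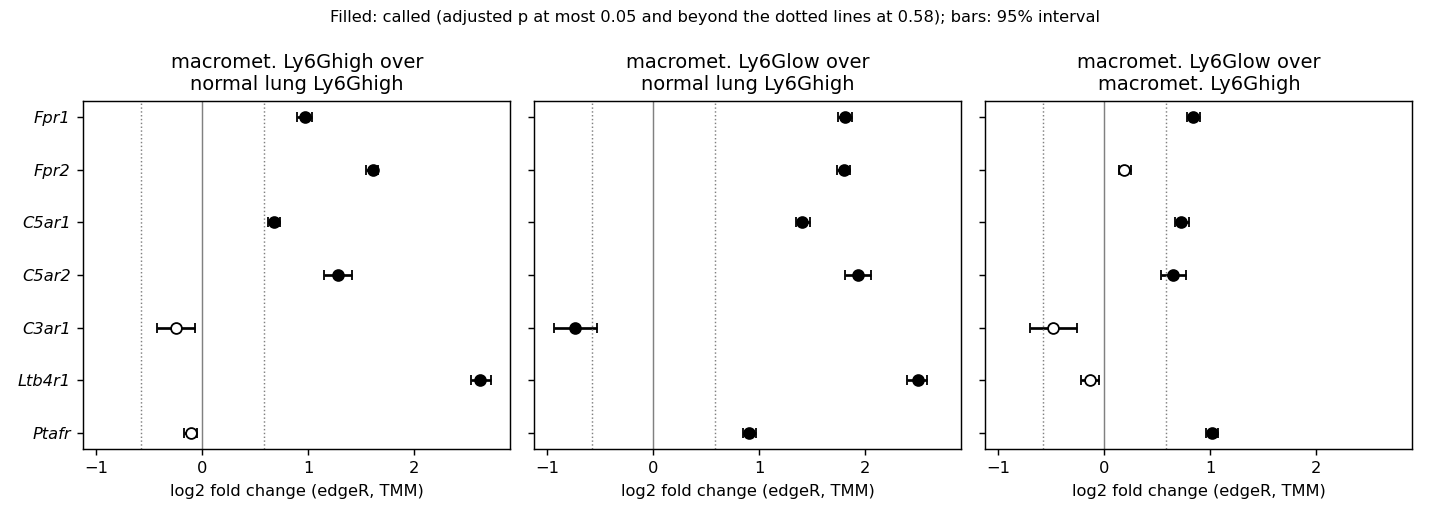
Log2 fold change from the edgeR fit (x axis) of each receptor gene (y axis) in the 3 comparisons of 3 against 3 libraries, with bars for the 95% interval, dotted lines at the threshold of 0.58 and filled points for called genes. Ltb4r1 had the highest values against normal lung, 2.63 and 2.50, and Ptafr the highest between the MACRO groups, 1.02.

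The make-up of the receptor transcripts was described as the share of each gene in the summed FPKM of the 7. The sum was 927 ± 8.6 FPKM (SD, n = 3) in NL Ly6Ghigh, 1460 ± 3.46 in MACRO Ly6Ghigh and 1730 ± 12.6 in MACRO Ly6Glow. Fpr2 took 30.3% of the sum in NL Ly6Ghigh, 42.4% in MACRO Ly6Ghigh and 34.7% in MACRO Ly6Glow. Ptafr took 20.6%, 8.8% and 12.8%, and Ltb4r1 took 4.57%, 13.1% and 8.54%, so that these lipid receptors shifted in opposite directions while their joint share stayed between 21.3% and 25.2%. The complement receptors together took 26.8%, 19.8% and 23.4%.

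**Figure D3:**
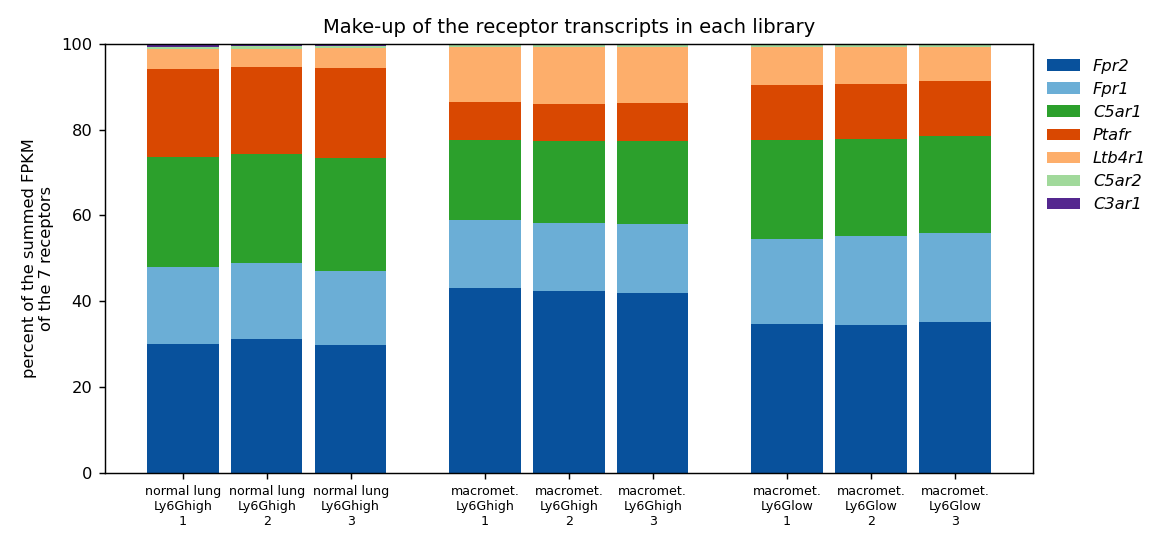
Share of each receptor gene in the summed FPKM of the 7 genes (y axis, percent) in each of the 9 libraries (bars, x axis). The share of Fpr2 was 42.4% on average in MACRO Ly6Ghigh against 30.3% in NL Ly6Ghigh, and that of Ltb4r1 was 13.1% against 4.57%.

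The FPKM ratio of Ptafr to Ltb4r1 was 4.51 ± 0.202 (SD, n = 3) in NL Ly6Ghigh, 0.674 ± 0.0112 in MACRO Ly6Ghigh and 1.5 ± 0.0745 in MACRO Ly6Glow. None of the 3 groups overlapped, and the 2 genes changed places in their order between the MACRO groups. The ratio of Fpr2 to C5ar1 was 1.17 ± 0.0519 in NL Ly6Ghigh, 2.23 ± 0.0693 in MACRO Ly6Ghigh and 1.53 ± 0.0296 in MACRO Ly6Glow. An exact two-sided permutation test of 3 against 3 libraries cannot give a p below 0.1, so no ratio could pass a threshold of 0.05 by this test.

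**Figure D4:**
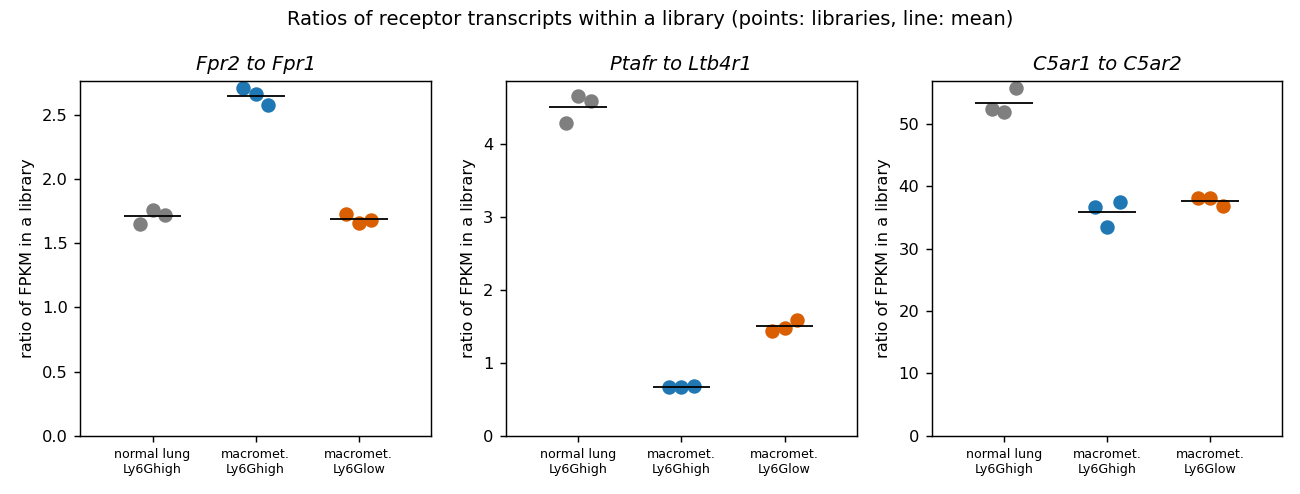
FPKM ratios of receptor genes within each library (points, y axis from 0) for the 3 groups (x axis), with the group mean as a line. Fpr2 to Fpr1 was 2.65 in MACRO Ly6Ghigh and 1.69 to 1.71 in the other groups on average, Ptafr to Ltb4r1 was 4.51 in NL Ly6Ghigh, 0.674 in MACRO Ly6Ghigh and 1.5 in MACRO Ly6Glow, and C5ar1 to C5ar2 was 53.4 in NL Ly6Ghigh and 35.9 to 37.7 in the MACRO groups.

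Genes for ligands of the receptors and for the enzymes that make or break down lipid mediators moved in both directions between the MACRO groups, with 5 of 21 tested genes higher in MACRO Ly6Glow, 7 lower and a median log2 fold change of -0.25. Camp, the cathelicidin that acts on Fpr2, was lower in MACRO Ly6Glow at 159 CPM against 934 (log2 fold change -2.55, SE 0.041, adjusted p = 2.88e-21). Camp also stands in the list of immature granule genes, of which 9 of 10 were lower in MACRO Ly6Glow. Saa3, a serum amyloid A gene, was higher at 1008 CPM against 537 (log2 fold change 0.91, SE 0.036, adjusted p = 4.53e-15). Anxa1, the annexin A1 gene, was 4417 CPM against 6318, a log2 fold change of -0.52 short of the threshold. It was beyond the threshold on log2(FPKM + 1), at -0.75, and on log2(TPM + 1), at -0.67. Of these 3 ligand genes of Fpr2, 1 was thus lower, 1 was higher and 1 was not called with TMM scaling. Against normal lung, Saa3 was 23.5-fold, Anxa1 5.25-fold and Camp 4.98-fold higher in MACRO Ly6Ghigh. Cfb, which encodes complement factor B, was 12.4-fold lower. The sums of epithelial or tumor and endothelial markers were also lower there, and their part in the Cfb result was not tested.

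Along the leukotriene B4 route, Lta4h, the enzyme of its last step, was 46.6 CPM in NL Ly6Ghigh, 205 in MACRO Ly6Ghigh and 73.1 in MACRO Ly6Glow. It was lower in MACRO Ly6Glow than in MACRO Ly6Ghigh (log2 fold change -1.49, SE 0.041, adjusted p = 1.24e-17), a comparison in which Ltb4r1 was not called. Alox5, the 5-lipoxygenase gene, and Alox5ap, its activating protein, were 1.72 and 2.60 higher in log2 in MACRO Ly6Ghigh than in NL Ly6Ghigh and were not called between the MACRO groups. For platelet-activating factor, Lpcat2, which makes it, was higher in MACRO Ly6Glow than in MACRO Ly6Ghigh (log2 fold change 0.69, SE 0.035, adjusted p = 2.57e-13). Pla2g7, which degrades it, was higher too (log2 fold change 1.01, SE 0.030, adjusted p = 4.67e-17). Alox5, Alox5ap and Pla2g7 were named after their values were seen, and the Lpcat2 difference was 0.45 on log2(FPKM + 1).

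Most of the shared signalling genes were not called between the MACRO groups, with 28 of 30 tested genes of G protein signalling and motility short of a call and a median log2 fold change of 0.08. Gnai2, the main inhibitory G protein subunit of leukocytes, was 1830 CPM in MACRO Ly6Glow and 1813 in MACRO Ly6Ghigh (log2 fold change 0.01, adjusted p = 0.793). Gna15, a G protein subunit with broad receptor coupling, was lower in MACRO Ly6Glow (log2 fold change -1.25), and Mapkapk2, a kinase downstream of p38, was at the threshold (0.58). Rac2, a GTPase of the neutrophil oxidase and cytoskeleton, had a log2 fold change of 1.75 in MACRO Ly6Ghigh over NL Ly6Ghigh. In that comparison, 22 of 30 were higher and none was lower, beside 26.3% and 36.6% of all genes. These counts depended on the scaling: on log2(FPKM + 1), 11 differences were above 0.58 and 2 below -0.58, with a median of 0.45 in place of 0.90, and on log2(TPM + 1), 1 was above and 3 were below, with a median of 0.09.

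Of the genes that silence or recycle receptors, 1 of 17 was higher and 4 were lower in MACRO Ly6Glow than in MACRO Ly6Ghigh. Rgs1, which shortens G protein signals, was lower (log2 fold change -1.11, SE 0.102, adjusted p = 5.4e-09), as was the receptor kinase gene Grk3 (log2 fold change -0.86, SE 0.111, adjusted p = 8.99e-07). Grk2, the more abundant receptor kinase, was 762 CPM against 740 and was not called, nor was Arrb2, which encodes an arrestin, at 455 CPM against 524. In MACRO Ly6Ghigh over NL Ly6Ghigh, 10 of 17 were higher and 4 lower, with Rgs18 at 2.83 and Grk3 at -2.23 in log2 fold change.

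Among 11 other tested receptors for chemoattractants and mediators, 3 were higher and 2 lower in MACRO Ly6Glow than in MACRO Ly6Ghigh, with Gpr35 at a log2 fold change of 0.83 (SE 0.038, adjusted p = 3.55e-14) and the nucleotide receptor P2ry2 at 0.73 (SE 0.055, adjusted p = 1.59e-10). In MACRO Ly6Ghigh over NL Ly6Ghigh, 5 were higher and 3 lower, with the short-chain fatty acid receptor Ffar2 at 3.06 (SE 0.095, adjusted p = 6e-18) and the medium-chain fatty acid receptor Gpr84 at 2.46 (SE 0.061, adjusted p = 1.25e-19). Ffar2 and Gpr84 were thus near the 2.63 of Ltb4r1 in that comparison.

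**Figure D5:**
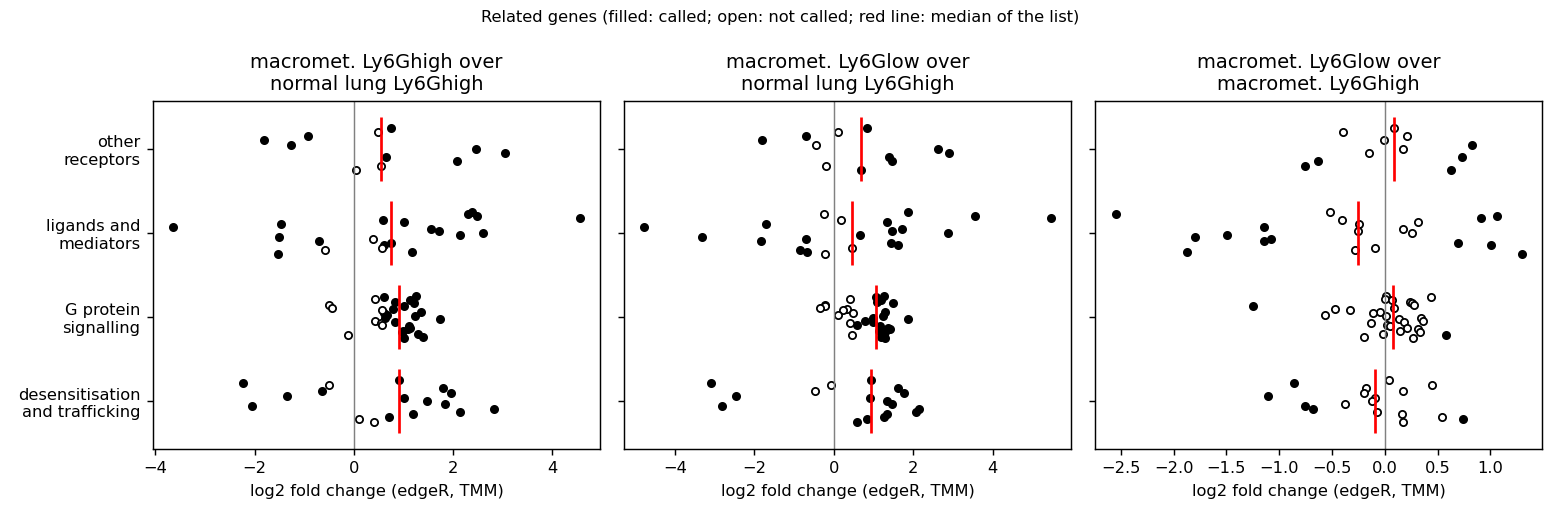
Log2 fold change from the edgeR fit (x axis, different ranges) of the tested genes of 4 related lists (y axis) in the 3 comparisons, with filled points for called genes, open points for the others and the list's median as a red line. Of the 30 signalling genes, 22 were called higher in MACRO Ly6Ghigh over NL Ly6Ghigh with TMM scaling (11 were above 0.58 on log2(FPKM + 1) and 1 on log2(TPM + 1)), and 28 were not called between the MACRO groups.

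The genes whose pattern was most like that of each receptor were found by the root mean square distance between log2 CPM values centred on their mean over the 9 libraries, among 8462 genes with at least 10 CPM in some group. For Fpr1 the nearest was Zfp36l2, which encodes an mRNA-binding protein, at a distance of 0.025. For Fpr2 it was Pirb, an inhibitory immunoglobulin-like receptor gene, at 0.029. For C5ar1 they were Atxn1 (0.038), P2ry2 (0.040) and Lpcat2 (0.043), which are a receptor gene and an enzyme gene of the lists above beside 1 other. For C5ar2 it was Sub1 (0.043), and for Ptafr it was Ctnnb1, the beta-catenin gene (0.038), followed by Blcap (0.043) and Nfkbiz (0.045). For Ltb4r1 the nearest were Cdkn2d (0.067) and Pglyrp1, a peptidoglycan recognition protein gene of neutrophil granules (0.081). For C3ar1 the nearest was Anapc1, at 0.091. With 3 groups, many genes can share a pattern by their group means alone, and these likenesses are a description.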

How the data were processed

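RNA was measured in 9 libraries of sorted mouse lung neutrophils. Per the labels, libraries were poly(A) selected, made strand-specific with dUTP and sequenced as paired ends, and the submitters' processing notes name mm10. The aligner and counter are not given in the sources used here. The authors deposited estimated counts per gene, of which 37.9% were whole numbers, and FPKM normalized by the authors to transcript length and library size. Of 22064 genes listed, 3739 were blank in every column and were not analysed here.

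Estimated counts were rounded and tested with edgeR 4.0.16 (R 4.3.3; TMM, filterByExpr, quasi-likelihood F test, all 9 libraries in 1 fit without covariates) over 14108 genes, with Benjamini-Hochberg adjustment and the study's fold change threshold of 0.58 in log2. All 7 receptor genes passed the filter. CPM are TMM-scaled. The script was tested on simulated data. Alternatives used limma 3.58.1 and DESeq2 1.42.0, and that on log2(TPM + 1) was chosen after seeing the data. Groups came from titles and treatment labels. The receptors and gene lists were chosen with earlier results of these data known. Beside the receptors, the genes named are Ly6g, Camp, Saa3, Anxa1, Gnai2, Grk2 and Arrb2, up to 2 called genes per related list and comparison with the widest fold change at 10 CPM or more, and up to 3 nearest genes per receptor. Outside this rule, Alox5, Alox5ap and Pla2g7, the related genes Fpr3 and Ltb4r2, and the markers Kit, S100a8 and S100a9 were named after their values were seen. Gene positions and sequences were matched by gene ID, and sequences are from RefSeq GRCm38.p6. Strand use in counting is not stated, so overlapping antisense genes cannot be told apart.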

Additional observations from a re-analysis of the deposited data

How the results depend on the processing

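Of 420 recomputed values of the 7 receptors, 390 kept their direction and their side of the threshold, including all 189 without 1 library and all 21 with DESeq2. Deviations from the group mean hardly correlated between same-numbered libraries (-0.068 to 0.077, none of 9 above 0.1). Such correlations cannot show whether same-numbered libraries came from the same animals. A replicate block left all 21 receptor calls. It gave 3522 called genes against 3560 between the MACRO groups, 8856 against 8874 and 9775 against 9809 against normal lung. Genes called between the MACRO groups numbered 2243 on log2(FPKM + 1), 2223 with an added FPKM minimum of 1, 7868 without a fold change threshold and 1305 with a threshold of 1, and receptors called numbered 2, 2, 7 and 1. In MACRO Ly6Ghigh over NL Ly6Ghigh, receptors called numbered 3 on both FPKM settings and 3 with a threshold of 1. The share of called genes that were higher in MACRO Ly6Glow than in MACRO Ly6Ghigh was 36.8% with TMM, 45.6% with DESeq2 and 14.3% on log2(FPKM + 1). For MACRO Ly6Ghigh and MACRO Ly6Glow over NL Ly6Ghigh, the higher share was 41.8% and 41.3% with TMM, 21.8% and 14.9% on log2(FPKM + 1), and 9.07% and 7.38% on log2(TPM + 1). The median log2 fold change of all genes against normal lung was -0.09 and -0.16 with TMM, -0.28 and -0.35 with upper-quartile factors, and -0.32 and -0.49 on log2(FPKM + 1). Directions were reversed for Fpr2 between the MACRO groups on FPKM (-0.04 with a pseudocount of 1 or 0.1, and -0.04 with the minimum), and on log2(TPM + 1) for C5ar1 in MACRO Ly6Ghigh over NL Ly6Ghigh (-0.15) and Ptafr in MACRO Ly6Glow over NL Ly6Ghigh (-0.07). These scalings omit the TMM factors, which were 0.803 to 0.95 in the MACRO libraries and 1.3 to 1.32 in the NL libraries. The summed level of the 7 receptors was 2550 TPM in MACRO Ly6Ghigh, 3210 in MACRO Ly6Glow and 2090 in NL Ly6Ghigh. With 3 libraries per group, no group was tested for a library standing apart.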
